A study of Homo sapiens with 18 samples.

Results

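Broad open domains are stretches of accessible chromatin that reach several kilobases, far wider than a usual open site. Here they were collected from ATAC-seq of the human lung adenocarcinoma line PC9, which carries a mutant epidermal growth factor receptor (EGFR). The peaks of 18 libraries on chromosomes 1 to 22 and X were merged wherever they shared at least 1 bp, and each merged region of at least 3000 bp was taken as a broad domain. The rule gave 1376 domains among 79483 merged regions, or 1.73%. The libraries formed 6 groups of 3. PC9 libraries were unsorted cells in the vehicle DMSO, and DTP (drug-tolerant persister) libraries were the unsorted cells left after 8 days of 1 µM erlotinib, which blocks the EGFR kinase. In 4 further groups, cells were given DMSO or 1 µM erlotinib for 12 h and then sorted into an ALDH-low and an ALDH-high fraction with Aldefluor, a dye assay for the activity of aldehyde dehydrogenase (ALDH). All groups come from the same line, and all cells were frozen in medium with DMSO and thawed before lysis, per the labels' protocols. The labels do not say whether the libraries a, b and c of a group came from separate cultures, or whether both fractions of a treatment came from the same culture, so p-values speak only of the spread among these libraries, part of which may be technical.

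ATAC-seq uses a transposase that inserts sequencing adapters into DNA that is not wrapped tightly in nucleosomes, so that reads pile up over promoters, enhancers and other open sites. A peak caller turns the pile into intervals. Broad intervals are often found at the promoters of strongly used genes, where nucleosomes are displaced over a long stretch, and at clusters of enhancers whose neighbouring open sites run together.

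Each library had 1 deposited peak list, and read depth is unknown. A library was said to hold a domain when it had a peak there, and a library without a peak there is written as 0 bp, which means only that no peak was called. The covered bases of a domain are the bases that a library's peaks occupy in it. The score of a peak was turned into its percentile within its own list. Beyond that it served only in alternatives given below, as a minimum and to rank peaks for lists of equal size. The lists held from 26225 to 45241 peaks, and the lowest deposited score was 70. No annotation of hg19, the build of the coordinates, was used here, so the domains are named by position and no genes are assigned to them.

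The domains were mostly just over the limit. Their median width was 3442.5 bp, with quartiles of 3169 and 3930.75 bp, against a median of 999 bp for all merged regions. In all, 745 domains (54.1%) were narrower than 3500 bp, 311 reached 4000 bp and 72 reached 5000 bp, and together they spanned 5.05 Mb. Just inside the limit stood chr1:209824214-209827213, chr5:78531018-78534017 and chr20:57225038-57228037, each 3000 bp wide. Just outside stood chr14:61787313-61790311 at 2999 bp and chr1:94081112-94084109 and chr2:39662834-39665831 at 2998 bp. A further 1641 regions were at least 2500 and under 3000 bp wide, so the limit cuts through a continuous range and the domains are a class by width alone.

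**Figure D1:**
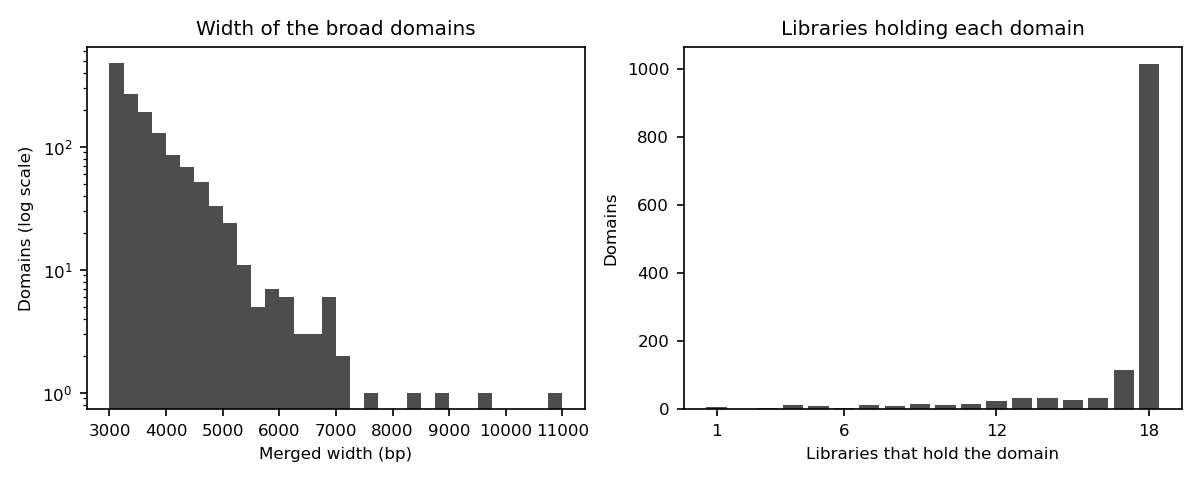
Left, number of domains (log axis) by merged width in bp, in bins of 250 bp. Right, number of domains by the number of libraries that hold a peak in them. Most domains are narrower than 3500 bp, and 1015 are held by all 18 libraries.

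Most of the domains were open in every condition. All 18 libraries held a peak in 1015 of them (73.8%), against 17.7% of all merged regions (the domains were chosen by width, so this is a description). A further 264 domains were held by 12 to 17 libraries, 67 by 6 to 11, 25 by 2 to 5 and 5 by a lone library. A domain was in part a product of merging. In 942 domains (68.5%) some library had a single peak of at least 3000 bp, and in the other 434 (31.5%) no library had one, so that the width came only from joining shorter peaks of different libraries or places. Of these 434 domains, 311 were held by all 18 libraries. A single peak of at least 3000 bp appeared in all 18 libraries at 10 domains and in exactly 1 library at 356.

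The core shared by the libraries was narrower than the domain. Of the 5.05 Mb of domain sequence, 26.6% was covered in all 18 libraries, 34.3% in 9 to 17, 29.2% in 2 to 8 and 9.92% in 1. At least 3000 bp were covered by 9 or more libraries in 205 domains, and by all 18 in 15. Most domains were not split into several peaks within a library: in 803 (58.4%) no library had more than 1 peak. In 573 some library had at least 2, and no library had more than 3. Peaks of different libraries could still lie at different places in a domain. The median domain had 63.6% of its width covered in its median library, with quartiles of 48.6% and 76.7%.

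The widest domain was chr14:103587159-103597945, at 10787 bp. PC9 libraries covered 7880, 6068 and 7974 bp of it, DTP libraries 5102, 7355 and 6627 bp, ALDH-low DMSO libraries 7720, 8448 and 9187 bp, and ALDH-high DMSO libraries 8469, 7170 and 7558 bp. Under erlotinib they were 0, 0 and 8688 bp in ALDH-low and 0, 9794 and 9696 bp in ALDH-high. Each library that held it had 2 peaks there. Where a sorted erlotinib list held the domain, it was not narrow. ALDH-low erlotinib c lay within the range of ALDH-low DMSO, and ALDH-high erlotinib b and c lay above every other library. Next was chr8:145009313-145018908, at 9596 bp, which was held by 12 libraries. PC9 libraries covered 2222, 8163 and 8400 bp, DTP libraries 4588, 4451 and 4550 bp, ALDH-low DMSO libraries 1916, 8445 and 2506 bp and ALDH-high DMSO libraries 8646, 0 and 8681 bp. Under erlotinib no peak was called in 5 of 6 libraries, and ALDH-low c had 1961 bp. Replicates differed widely here in PC9 and in both DMSO fractions, while those of DTP lay close together and no ALDH-high erlotinib library had a peak.

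Replicates disagreed at some of the other wide domains. At chr20:29645287-29654069 (8783 bp), ALDH-high DMSO had 1424, 0 and 8527 bp, and ALDH-low DMSO had 0, 6550 and 4193 bp. At chr5:668881-675797 (6917 bp), ALDH-high erlotinib had 0, 0 and 6558 bp, while DTP had 4630, 2517 and 4112 bp. By contrast, chr8:145044309-145052607 (8299 bp) held exactly 2 peaks in each of the 18 libraries, with 2877 to 8075 bp covered, and it was the lone domain with at least 2 peaks in every library. Of the other 5 among the 10 widest, chr13:110433406-110440553 (7148 bp) was covered over 6584 to 6923 bp in ALDH-low erlotinib and over 0 to 5170 bp in ALDH-low DMSO. At chr9:139738116-139745076 (6961 bp), held by all 18 libraries, replicates lay close together in DTP (3124 to 3397 bp), ALDH-low DMSO (3193 to 3382 bp), ALDH-high DMSO (3177 to 3452 bp) and ALDH-high erlotinib (3377 to 3712 bp), and less so in PC9 (1332 to 3207 bp) and ALDH-low erlotinib (3818 to 6522 bp). The remaining 3 were chr22:50739704-50747359, chr7:5629709-5636716 and chr10:80825820-80832699.

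Some domains were absent in 1 library and wide in its replicate. Among domains of 3000 to under 3500 bp, 26 of 745 (3.49%) were absent in 1 library and covered over at least 3000 bp in another library of the same group. From 3500 to under 4500 bp the count was 48 of 474 (10.1%), and from 4500 bp it was 32 of 157 (20.4%). The fixed 3000 bp asks for a larger share of a narrow domain than of a wide one, so these shares do not compare the classes in agreement. These 106 domains were most numerous in ALDH-low erlotinib, with 41, and fewest in PC9, with 7. A group with more wide peaks can be counted more often, so these numbers do not rank the groups in agreement. The median SD of covered bases among replicates was 388 bp in ALDH-low DMSO, 368 bp in ALDH-low erlotinib and 258 bp in PC9. A wide peak that turns into none between replicates sets a limit on single wide domains in every comparison that follows. Wider domains also held lower-ranked peaks: the median percentile of the best peak was 75, 69.7 and 60.8 in the same classes, and the median covered share was 66.5%, 62.1% and 54.1%.

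The rarest domains and those with the most peaks showed the ends of the range. Held by 1 library each were chr5:316865-319944 (ALDH-high erlotinib c), chr5:1073323-1076992 (ALDH-low DMSO b), chr6:159179404-159183263 and chr12:132400953-132404056 (both ALDH-high erlotinib a), and chr10:42729255-42732361 (ALDH-low DMSO c). Each was 1 peak of 3080 to 3860 bp, ranked between the 1.42 and 27.9 percentile of its list. The most peaks over all libraries, 35 or 36, fell in chr8:145044309-145052607, chr14:62027392-62032377, chr3:193586270-193592045, chr10:5624234-5627924 and chr11:18415216-18418446. At chr11:18415216-18418446 the covered bases varied little, from 2188 to 2955 bp over all libraries, and its best peak lay between the 61.9 and 93.3 percentile.

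Domains were spread over all the chromosomes analysed and were denser on some. They made up 3.06% of the merged regions of chromosome 14, 3.05% of chromosome 22 and 2.63% of chromosome 19, against 0.737% on chromosome 4 and 0.946% on chromosome X. The largest numbers lay on chromosome 2 (160), chromosome 1 (126) and chromosome 7 (102). The median distance to the nearest other domain was 241.7 kb, and 469 domains (34.1%) had another within 100 kb. Windows of 1 Mb with at least 4 domains numbered 64 and held 344 domains. The densest was 145 to 146 Mb of chromosome 8, where 17 of 45 merged regions were broad, followed by 13 of 65 in 103 to 104 Mb of chromosome 14 and 13 of 54 in 50 to 51 Mb of chromosome 22. Both domains above 9 kb lie in the first 2 of these windows.

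Erlotinib libraries covered more of the domains than DMSO libraries in both ALDH fractions. The domains were chosen and bounded by these same peaks, so the totals are in part what the rule used. ALDH-low libraries covered 2.65, 2.78 and 2.81 Mb under DMSO and 3.77, 3.61 and 3.38 Mb under erlotinib, a mean of 2.75 ± 0.0881 Mb against 3.59 ± 0.195 Mb (SD, n = 3), or 30.7% more. ALDH-high libraries covered 3.10, 2.87 and 2.98 Mb under DMSO and 3.49, 3.17 and 3.59 Mb under erlotinib, or 14.6% more. DTP libraries covered 2.85, 2.86 and 2.94 Mb against 2.70, 2.71 and 2.74 Mb in PC9, or 6.29% more. The groups of each of these pairs did not overlap, and neither did ALDH-high and ALDH-low under DMSO (8.68% more in ALDH-high), whereas the fractions overlapped under erlotinib. No p-value is given for such totals, since 3 libraries against 3 cannot pass 0.05 in an exact two-sided test.

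The whole lists moved with the domains, and by a larger share. Over all peaks the covered bases were 43.1% higher with erlotinib in ALDH-low, 26.6% higher in ALDH-high and 12.8% higher in DTP than PC9. The domains' part of all covered bases was therefore lower in the treated groups: 8.67 ± 0.441% against 9.46 ± 0.185% in ALDH-low, 7.95 ± 0.263% against 8.77 ± 0.168% in ALDH-high, and 6.74 ± 0.0655% against 7.16 ± 0.0561% in DTP and PC9 (SD, n = 3). In each of these pairs the 3 treated libraries lay below the 3 controls. The domains' covered bases were thus higher by a smaller percentage than those of the lists as a whole.

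**Figure D2:**
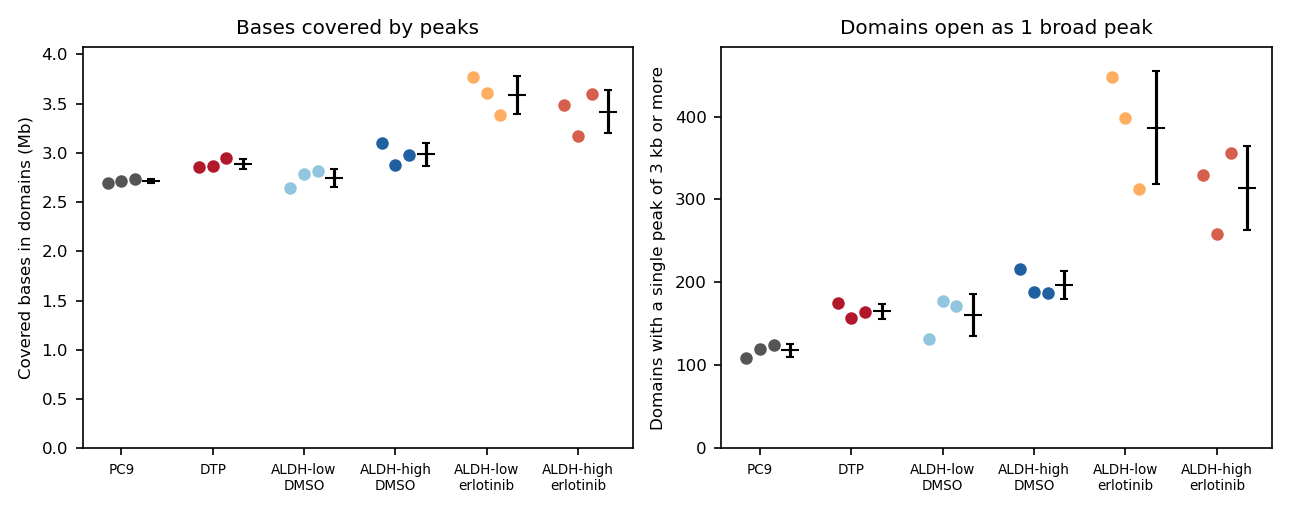
Left, Mb of domain sequence covered by the peaks of each library. Right, number of domains in which the library has a single peak of at least 3 kb. Points are libraries a, b and c in order from left to right, and the bar beside them is the mean ± SD (n = 3). The 6 sorted erlotinib libraries stand above the 6 sorted DMSO libraries in both panels, and DTP above PC9. Both measures are in part what the rule used.

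Single peaks of at least 3 kb were also counted. Such a peak makes its region a domain, so these numbers describe what the rule used. Within the domains, it was found at 109, 120 and 125 domains in PC9 and at 175, 157 and 164 in DTP. It was found at 132, 178 and 172 domains in ALDH-low DMSO and at 448, 398 and 313 in ALDH-low erlotinib, a mean 140.5% higher. In ALDH-high the numbers were 216, 188 and 187 under DMSO and 329, 258 and 356 under erlotinib, a mean 59.6% higher. Each treated group lay above its control without overlap. The erlotinib numbers varied widely, with ALDH-low c and ALDH-high b lowest, and those 2 libraries also had the shortest lists of their groups (32583 and 34317 peaks). The median covered share of a domain was 57.2 ± 0.263% in PC9 and 60.2 ± 1.42% in DTP, and among the sorted groups 58.0 ± 2.37% in ALDH-low DMSO, 63.1 ± 2.46% in ALDH-high DMSO, 77.6 ± 4.55% in ALDH-low erlotinib and 74.0 ± 5.28% in ALDH-high erlotinib (SD, n = 3). The part of list length and depth in these differences was not tested at the level of the totals. List length, but not depth, was varied domain by domain with lists cut to equal size, given below.

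Fragmentation ran differently. The domains split into 2 or more peaks numbered 178 to 189 in PC9 and 142 to 172 in DTP, and 96 to 103 in ALDH-low DMSO, 129 to 139 in ALDH-high DMSO, 119 to 142 in ALDH-low erlotinib and 144 to 183 in ALDH-high erlotinib. PC9 had more split domains than DTP and fewer with a single peak of at least 3 kb, without overlap in either. Peaks were narrower in the unsorted lists as a whole, with a median of 817 to 885 bp against 979 to 1020 bp in the sorted lists, so these totals are compared only within the unsorted pair or among the sorted groups.

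The covered share of each domain was compared between groups with limma, which fits a linear model to each region and moderates its variance across regions. All 54761 regions held by at least 3 libraries were fitted together, including 1370 of the 1376 domains, and a domain was called when its adjusted p (Benjamini-Hochberg, over all 54761) was below 0.05. Domains had a smaller spread between libraries than other regions, with a median SD of 13.2 points of covered share against 21.3, so a given difference in points is more easily called in them. The spread of a region is pooled over the 6 groups. A group with no peak in any library adds no spread, which lowers the SE and p there. Such zeros mean only that no peak was called, not that the replicates agree. Differences in points are of the share of the domain's width. That width comes from the same peaks: without ALDH-low erlotinib a, b or c the number of domains was 1274, 1293 or 1327, and without any 1 of the other libraries 1317 to 1369. The domains' shares against the background are therefore descriptions. The alternative fits given below all kept the domains and widths merged from all 18 libraries. A call that held under them was therefore not tried with other boundaries. On simulated data the false calls, none of them at domains, took a larger part of the calls over all regions than the threshold states, so the background shares may hold more false calls than the adjusted p allows.

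**Figure D3:**
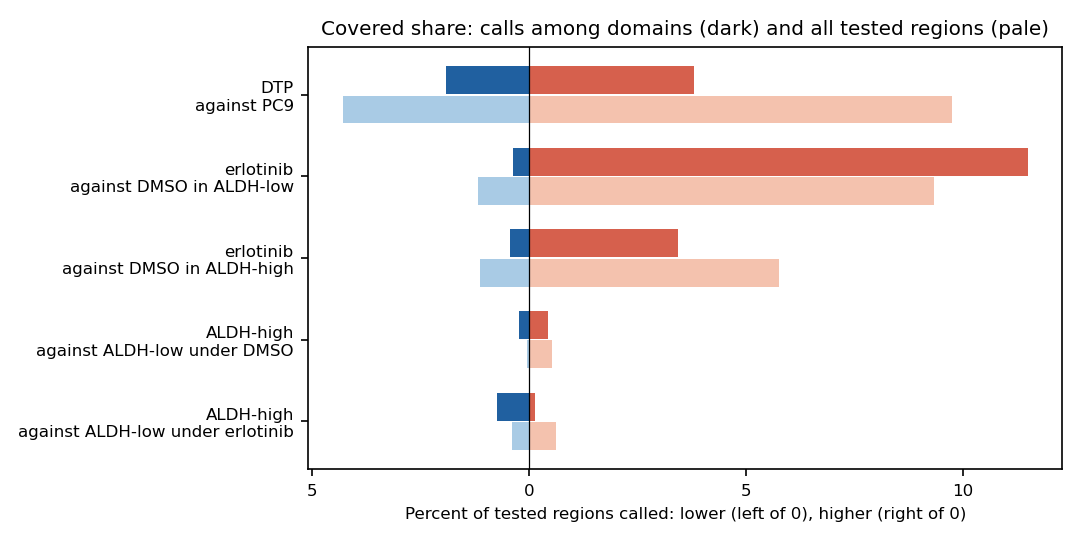
Percent of the tested domains (dark bars, n = 1370) and of all tested regions (pale bars, n = 54761) called by limma at an adjusted p below 0.05, higher to the right of 0 and lower to the left. With erlotinib in ALDH-low, 11.5% of domains were higher against 9.33% of all regions; in DTP against PC9, 3.8% against 9.76%.

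In DTP against PC9, 52 domains were higher and 26 lower in covered share, or 3.8% and 1.9% of those tested, where 9.76% and 4.29% of all regions were called (limma). Both shares lay below that background, and the domains' median difference of 2.95 points was close to the 2.98 points of all regions. The excess of higher calls depended on the scaling: with each library centred on its median over the regions held by all, 37 domains were higher and 36 lower (2.7% and 2.63%, against 9.11% and 4.84% of all regions), and with lists of equal size 37 and 31 (2.76% and 2.31%, against 6.73% and 4.68%). Over all regions the higher calls still outnumbered the lower ones under both settings. Without DTP a, b or c the total of 78 fell to 43, 46 and 41. The higher domains gained a median of 1317 bp, and 27 of the 52 had more peaks on average in DTP. The lower domains were covered over a median of 1317 bp less, and 17 of the 26 had fewer peaks.

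A loss in DTP that did not depend on the settings was at chr8:126555783-126560232, a domain of 4450 bp held by all 18 libraries. PC9 covered 3923, 4045 and 3967 bp of it, and DTP covered 1251, 1956 and 1178 bp. The covered share fell by 56.6 ± 9.37 points (SE, limma adjusted p = 0.000461), and the call held under each alternative tried, with adjusted p up to 0.0449. No such loss was called after 12 h of erlotinib: ALDH-low had 3701, 2427 and 3692 bp under DMSO and 2181, 3864 and 2424 bp under erlotinib, which overlap, and ALDH-high had 4166, 4113 and 4069 bp against 3328, 3708 and 3609 bp (-12.8 points, limma adjusted p = 0.508). Its best peak ranked from the 16.6 to the 38.3 percentile in DTP and from 56.4 to 79.6 in PC9.

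Other domains were absent from the DTP lists altogether. At chr1:86045393-86049213, PC9 covered 2116, 2074 and 2898 bp and DTP 0, 0 and 0 bp (-61.8 ± 13.8 points, limma adjusted p = 0.00575). At chr6:133139512-133144641, PC9 covered 1064, 3082 and 3290 bp and DTP none (-48.3 points, limma adjusted p = 0.0139), and at chr20:60931699-60935515 PC9 covered 1735, 2599 and 2447 bp and DTP none (-59.2 points, limma adjusted p = 0.0329). The domain on chromosome 6 was lower in the sorted erlotinib libraries too, with 1172, 0 and 0 bp against 2628, 1507 and 3518 bp in ALDH-low, and 1883, 1269 and 1240 bp against 3415, 4881 and 3228 bp in ALDH-high. Both calls (limma adjusted p = 0.0409 and 0.0325) depended on single libraries, among them ALDH-high erlotinib b and c. With a block for the replicate letters both were lost. The call in ALDH-low was also lost with only its own libraries, and the call in ALDH-high on the log2 scale. The losses in DTP were no longer called when only peaks with a score of at least 100 were used, or with lists of equal size. In DTP, the calls on chromosomes 6 and 20 were also lost when any of DTP a, b or c, or PC9 b or c, was left out. Also lower in DTP were chr20:46599807-46602931, a call lost at a score of at least 100 and without DTP c, and chr2:173326360-173329768, the latter called at a limma adjusted p of 0.048 that 17 of 25 alternatives ended.

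Domains that were higher in DTP were absent or partial in PC9. At chr1:152006531-152010123, PC9 covered 0, 0 and 793 bp and DTP 3133, 2839 and 2463 bp, in 2 peaks in each DTP library (+70.9 ± 16.2 points, limma adjusted p = 0.00663). At chr2:238599409-238602857, PC9 had no peak and DTP covered 3217, 1462 and 3066 bp (+74.9 points, limma adjusted p = 0.0115). At chr12:120665851-120670340, held by all libraries, PC9 covered 1177, 2747 and 1728 bp and DTP 3794, 3750 and 4021 bp (+43.9 points, limma adjusted p = 0.0168). These 3 calls were lost at a score of at least 100 and with lists of equal size, the one on chromosome 2 also without DTP a or c, and the one on chromosome 12 also on the log2 scale and without PC9 a or c or any DTP library. The other 3 with the largest gains were chr1:37939040-37943931, chr1:156661070-156664838 and chr7:5464873-5470375, the last of which was held by too few libraries to be fitted under those settings and lost its call when any PC9 library, DTP b or DTP c was left out.

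With erlotinib in the ALDH-low fraction, 158 domains were higher and 5 lower, or 11.5% and 0.365%, against 9.33% and 1.18% of all regions (limma). The median difference over the domains was 14.2 points, against 10.5 points over all regions. More domains were higher than lower under each alternative, but the position against the background was not stable. After centring, 75 domains were higher and 7 lower (5.47% and 0.511%, against 6.1% and 1.66% of all regions), and with only the libraries of the comparison 8.17% were higher against 13.3% of all regions, both below the background. With lists of equal size the counts were 88 and 12 (6.56% and 0.895%, against 5.86% and 2.92%). The higher domains gained a median of 1713 bp, from 661 to 4360 bp. Of the 158, 88 were held by all 18 libraries, 91 had more peaks on average under erlotinib and 39 reached 3000 bp only by joining peaks.

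The domains with the largest gains in ALDH-low had few or no peaks under DMSO, and their extent was set largely by the erlotinib peaks themselves, so that a high covered share under erlotinib was fixed by the rule. At chr8:144949530-144954273, 4744 bp wide, DMSO libraries had no peak and erlotinib libraries covered 4060, 4744 and 4277 bp (+91.9 ± 16.3 points, limma adjusted p = 0.00186), each as 1 peak that ranked only between the 13.5 and 24.4 percentile of its list. At chr11:2948983-2952659, DMSO libraries had none and erlotinib libraries 3625, 3503 and 3642 bp of 3677 bp (+97.6 ± 13.4 points, limma adjusted p = 0.000218). At chr22:36763934-36767546, DMSO libraries had none and erlotinib libraries 3519, 2940 and 3601 bp of 3613 bp (+92.8 ± 11.8 points, limma adjusted p = 0.000107). The calls at chromosomes 11 and 22 held under each alternative tried. The one at chromosome 8 was lost at a score of at least 100 and could not be fitted with lists of equal size. Those alternatives kept the same domain boundaries, so they do not test the rule's part in these shares. The unsorted libraries differed here: both PC9 (996 to 1365 bp) and DTP (1193 to 1342 bp) held the domain on chromosome 22, and neither held the one on chromosome 11.

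At chr19:46269736-46275111, ALDH-low DMSO libraries covered 2639, 0 and 0 bp and erlotinib libraries 5164, 4766 and 4339 bp of 5376 bp (+72.1 ± 12.3 points, limma adjusted p = 0.00135), a call that held under each alternative. The ALDH-high fraction already covered 4171, 3190 and 3754 bp there under DMSO, and 4256, 2044 and 4072 bp under erlotinib, which overlap. A pair of neighbours on chromosome 22 completes the largest gains: at chr22:50719209-50723809 none of the DMSO libraries had a peak and erlotinib libraries covered 2448, 4523 and 3865 bp (limma adjusted p = 0.000296), and at chr22:50739704-50747359 the values were 2968, 0 and 0 bp against 5821, 5680 and 3743 bp (limma adjusted p = 0.031). The first was lost at a score of at least 100 and with lists of equal size. The second was lost with lists of equal size, after centring, on the log2 scale, with only its own libraries, and without ALDH-low DMSO b or c or ALDH-low erlotinib a or b.

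The 5 domains that were lower with erlotinib in ALDH-low included chr5:148291505-148294796, where DMSO libraries covered 1095, 2555 and 2268 bp and erlotinib libraries 0, 0 and 0 bp (-59.9 ± 14.3 points, limma adjusted p = 0.0136). ALDH-high libraries kept it under erlotinib, at 2379, 3163 and 2504 bp. The loss in ALDH-low was not called at a score of at least 100 or without ALDH-low DMSO b. Also lower were chr2:217235586-217239164 (3057, 2498 and 3066 bp against 1899, 1666 and 1073 bp, a call lost at a score of at least 100 and without ALDH-low DMSO a or c or erlotinib b or c), chr6:133139512-133144641, chr17:16922499-16925616 and chr16:32350452-32353914. The last was covered over 2838, 1312 and 3463 bp in ALDH-low DMSO, over 1469, 0 and 0 bp in ALDH-low erlotinib, and in no other group; its values overlap between the treatments, and its call was lost with only its own libraries and could not be fitted at a score of at least 100.

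With erlotinib in the ALDH-high fraction, 47 domains were higher and 6 lower, or 3.43% and 0.438%, against 5.77% and 1.12% of all regions (limma). The median difference was 7.52 points over the domains and 7.42 over all regions, nearly the same value. With lists of equal size 31 were higher and 10 lower (2.31% and 0.746%, against 4.17% and 2.45% of all regions). The higher domains gained a median of 1575 bp, and 32 of the 47 had more peaks on average under erlotinib. In all 47 the 3 treated libraries lay above the 3 controls in covered bases.

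Among the large gains in ALDH-high, those at the 3 domains that follow held under each alternative tried. At chr2:219758598-219763516, held by all 18 libraries as 1 peak each, DMSO libraries covered 1886, 1478 and 1848 bp and erlotinib libraries 4558, 4654 and 4893 bp of 4919 bp (+60.3 ± 9.63 points, limma adjusted p = 0.000987). It was 1 wider peak at the same place. In ALDH-low the values were 2157, 1572 and 1686 bp against 4728, 3571 and 2804 bp (limma adjusted p = 0.0179, lost after centring, with only its own libraries, and without ALDH-low DMSO b or c or erlotinib a), and DTP had 1774, 2601 and 1785 bp. At chr1:32046687-32050833 no DMSO library of either fraction had a peak, and erlotinib libraries covered 3038, 2926 and 2854 bp in ALDH-high (+70.9 ± 9.93 points, limma adjusted p = 0.000307) and 3198, 3784 and 1545 bp in ALDH-low (+68.5 points, limma adjusted p = 0.000359), mostly in 2 peaks. PC9 b had 843 bp there, and the other 5 unsorted libraries had none. At chr1:156661070-156664838 no PC9 or DMSO library had a peak, while DTP covered 2420, 2166 and 1212 bp, ALDH-low erlotinib 2460, 1613 and 3728 bp and ALDH-high erlotinib 3421, 1483 and 3498 bp. The best peaks there ranked between the 11 and 13.2 percentile in DTP and between 63.9 and 73 in the sorted erlotinib lists, and the DTP call (limma adjusted p = 0.0213) was lost at a score of at least 100, with lists of equal size and without any PC9 library, DTP a or DTP b.

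Among the other large gains in ALDH-high, chr7:5464873-5470375 was covered over 2825, 5503 and 4494 bp under erlotinib and had no peak under DMSO (+77.7 points, limma adjusted p = 0.00328), and chr6:159189857-159195965 rose from 0, 2349 and 1243 bp to 5162, 2829 and 4078 bp (limma adjusted p = 0.00777). The call on chromosome 7 could not be fitted at a score of at least 100 or with lists of equal size, where fewer than 3 libraries held the domain, and held under the other alternatives, and the one on chromosome 6 was lost at a score of at least 100, with lists of equal size, on the log2 scale and with only its own libraries. The last of the 6, chr19:17355674-17360803, was called at a limma adjusted p of 0.0329 that 9 of 25 alternatives ended. The 6 lower domains were led by chr6:74222131-74226360, which fell from 4179, 2779 and 2795 bp to 0, 0 and 1501 bp (-65.0 ± 14.1 points, limma adjusted p = 0.00926), a call that held under each alternative. At chr5:14035185-14040403 the loss was of a peak: ALDH-high DMSO had 2 peaks and 3590, 4323 and 4565 bp, and ALDH-high erlotinib 1 peak and 2541, 2927 and 2613 bp (-28.1 points, limma adjusted p = 0.0292). That call was lost on the log2 scale, with a block for the replicate letters and with only its own libraries. It was also lost without ALDH-high DMSO b or c or ALDH-high erlotinib a or c.

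Some of the higher domains were the same in comparisons that have no library in common. Of the 158 domains higher with erlotinib in ALDH-low and the 47 in ALDH-high, 27 were the same, or 17.1% and 57.4% of each list. DTP shared 12 of its 52 higher domains with ALDH-low erlotinib (23.1% and 7.59% of each list) and 8 with ALDH-high erlotinib (15.4% and 17%). Of the 26 domains lower in DTP, 2 were also lower with erlotinib in ALDH-low and 3 in ALDH-high, whereas 3 and 1 were higher there. No test of these overlaps was made. They were not counted over all regions either, so whether they are particular to the domains is not known.

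New bases lay mostly at the ends of domains, where most of them could lie, since few domains had a gap between control peaks. In the domains held by all 6 libraries of a comparison, the bases covered in all 3 treated and no control libraries came to 120.2 kb in 465 domains for ALDH-low erlotinib, and 91.6% of them lay beyond the outermost control peaks, the rest in gaps between control peaks. For ALDH-high erlotinib they came to 69.4 kb in 329 domains with 94.4% at the ends, and for DTP to 66.0 kb in 299 domains with 91.7% at the ends. The reverse, bases covered in all controls and no treated library, came to 6.57 kb in ALDH-low, 16.6 kb in ALDH-high and 50.6 kb in DTP, where it was nearest to the gain, and these bases also lay mostly at the ends (75.6%, 96.9% and 88.4%). Gains at both ends of a domain were rare, in 53, 19 and 27 domains.

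The ALDH fractions differed at few domains. Under DMSO, 6 domains were higher and 3 lower in ALDH-high than in ALDH-low, or 0.438% and 0.219%, against 0.526% and 0.0511% of all regions (limma); with lists of equal size 1 was higher and 2 lower (0.0746% and 0.149%, against 0.239% and 0.148%). Under erlotinib, 2 were higher and 10 lower, or 0.146% and 0.730%, against 0.632% and 0.387% of all regions. At an unadjusted p below 0.05 the totals were 120 and 152 of 1370 domains. That count was not made over all regions, so it is not read as a result about the domains. The change with erlotinib itself differed between the fractions, by the interaction contrast, at 1 domain in the positive and 6 in the negative direction (ALDH-high minus ALDH-low), against 0.254% and 0.436% of all regions. Comparisons that share a group of libraries, such as these and the erlotinib comparisons, are not independent, and the values of all groups are given together for that reason.

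**Figure D4:**
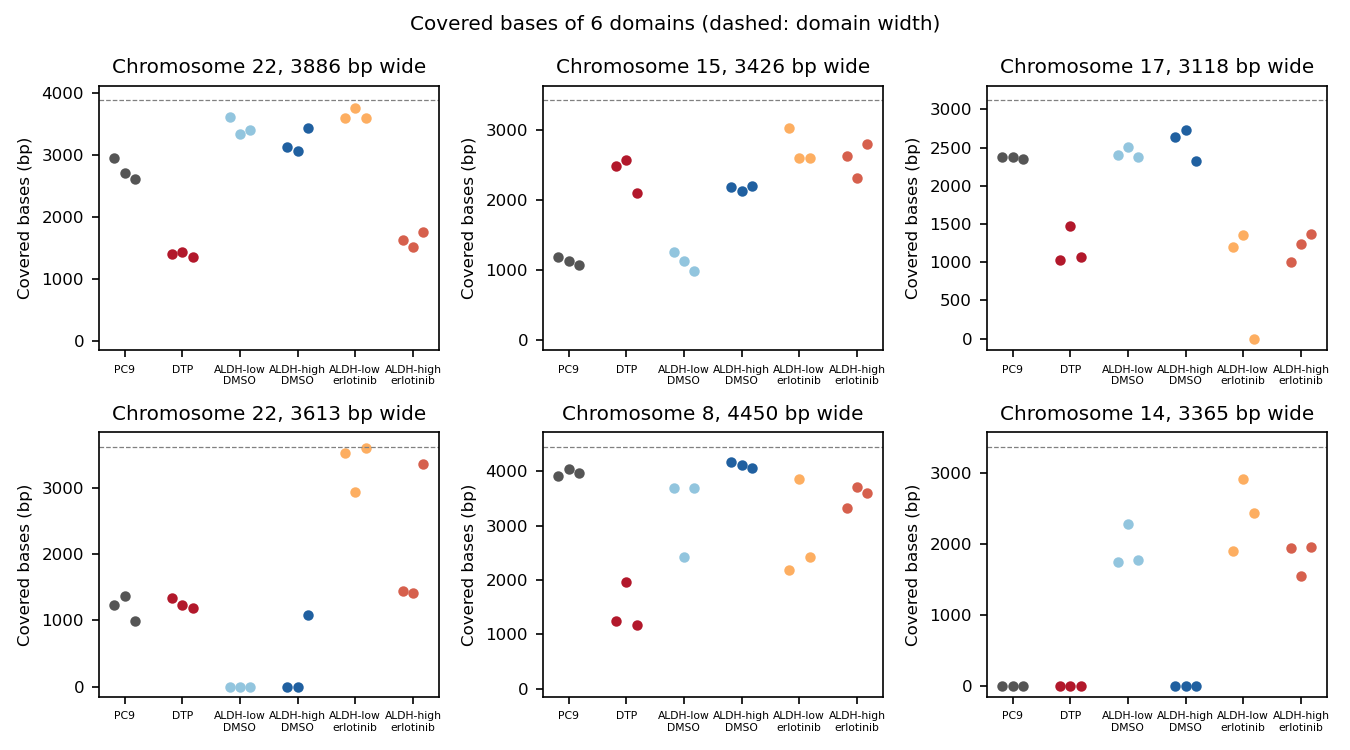
Covered bases in bp of 6 domains, 1 panel each, for the 18 libraries (points a, b and c from left to right in each group); the dashed line is the width of the domain. The panel at upper left shows the chromosome 22 domain of 3886 bp, where the DTP and ALDH-high erlotinib libraries lie between 1359 and 1759 bp and the other 12 libraries at or above 2612 bp.

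Under erlotinib, the domain that differed between the fractions with the smallest limma adjusted p was chr22:36781163-36785048, 3886 bp wide, although other domains, given below, differed by more points. It was covered over 3622, 3338 and 3415 bp in ALDH-low DMSO, 3134, 3071 and 3434 bp in ALDH-high DMSO and 3602, 3767 and 3596 bp in ALDH-low erlotinib, but over only 1638, 1520 and 1759 bp in ALDH-high erlotinib. ALDH-high was lower than ALDH-low under erlotinib (-51.9 ± 4.68 points, SE, limma adjusted p = 2.41e-05), and this call held under each alternative tried. With erlotinib it was lower in ALDH-high (-40.5 points, limma adjusted p = 4.5e-05) and not detectably in ALDH-low (+5.06 points, limma adjusted p = 0.563), and the difference between these changes was itself called (-45.6 ± 6.62 points, limma adjusted p = 0.00325). DTP, with 1398, 1441 and 1359 bp against 2948, 2708 and 2612 bp in PC9, was lower as well (-34.9 points, limma adjusted p = 4.82e-05). The change in ALDH-high, the change in DTP and the difference between fractions in the change were not called at a score of at least 100 or with lists of equal size, and the last also not with the 12 sorted libraries alone.

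The peaks show which piece of chr22:36781163-36785048 was lost. In PC9 and ALDH-high DMSO the domain held 2 peaks, a left one that started 313 to 594 bp and ended 1831 to 2093 bp from the domain's start, and a right one that started 1999 to 2436 bp from it. In ALDH-low, under DMSO and erlotinib alike, a single peak of 3338 to 3767 bp ran over both. In DTP and ALDH-high erlotinib only the right piece was called, starting 1919 to 2459 bp from the domain's start. The right piece ranked at the 82.7 to 93.0 percentile in PC9 and ALDH-high DMSO and at 91.4 to 98.4 in DTP and ALDH-high erlotinib, whereas the left piece had ranked anywhere from 14.2 to 75.5. The domain thus lost its lower-ranked left part and kept a peak among the highest of each list.

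**Figure D5:**
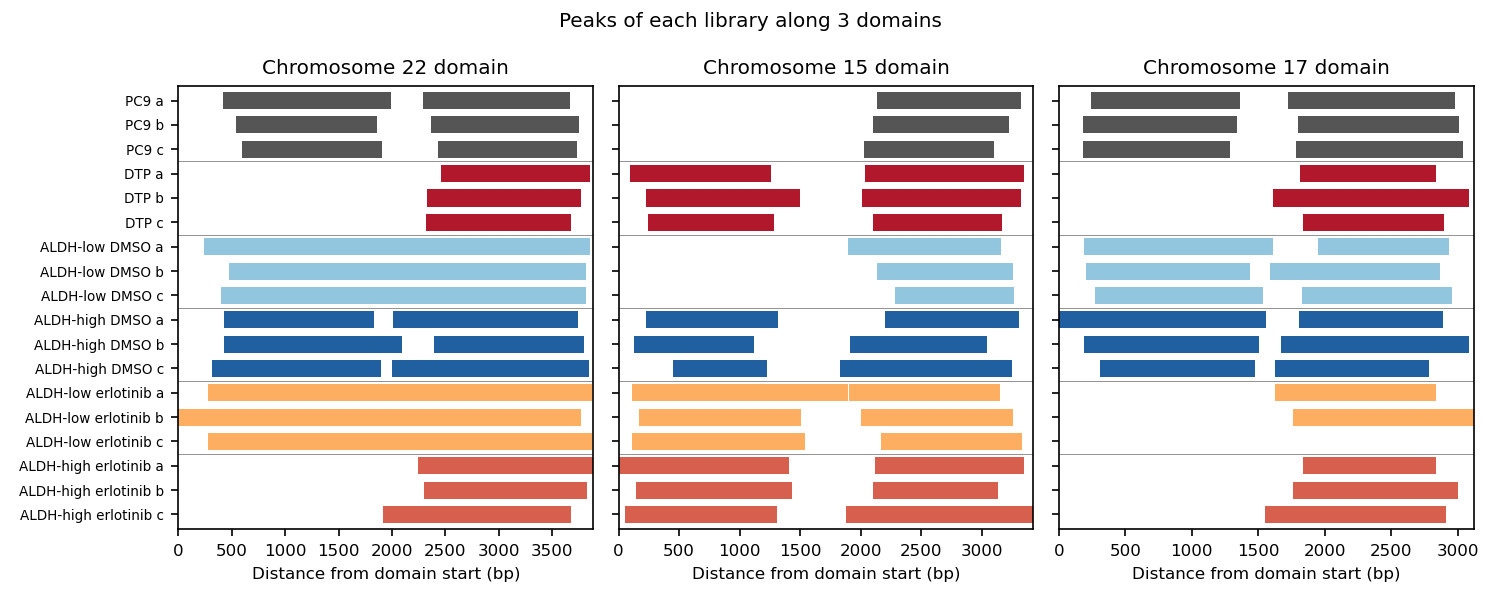
Peaks of each library (rows, grouped by condition) along 3 domains, as distance in bp from the domain's start. At left (chr22:36781163-36785048) DTP and ALDH-high erlotinib lack the left piece; in the middle (chr15:58621788-58625213) PC9 and ALDH-low DMSO lack the left peak; at right (chr17:16922499-16925616) DTP and the sorted erlotinib libraries lack the left peak.

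At chr15:58621788-58625213, 3426 bp wide, the opposite was seen: a left peak was added. PC9 covered 1187, 1128 and 1068 bp and ALDH-low DMSO 1261, 1126 and 985 bp, each as 1 peak on the right. DTP covered 2481, 2576 and 2098 bp, ALDH-high DMSO 2191, 2130 and 2197 bp, ALDH-low erlotinib 3027, 2598 and 2597 bp and ALDH-high erlotinib 2636, 2321 and 2803 bp, each as 2 peaks. The share was higher in DTP than PC9 by 36.7 ± 5.53 points (limma adjusted p = 0.000166), with erlotinib in ALDH-low by 47.2 points (limma adjusted p = 4.85e-05) and in ALDH-high over ALDH-low under DMSO by 30.6 points (limma adjusted p = 0.0166). The calls in DTP and between the fractions were lost at a score of at least 100 and with lists of equal size, the latter call also with its own libraries alone, and the call in ALDH-low with lists of equal size. The left peak ranked below the right one in each DTP and ALDH-high DMSO library (12.5 to 38.0 against 45.5 to 78.3 percentile) and above it in all 6 sorted erlotinib libraries (66.1 to 77.8 against 24.1 to 48.9).

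At chr17:16922499-16925616, 3118 bp wide, a left peak was absent after drug in both the sorted and unsorted cells. PC9 covered 2374, 2371 and 2348 bp, ALDH-low DMSO 2408, 2512 and 2383 bp and ALDH-high DMSO 2640, 2736 and 2320 bp, always in 2 peaks. DTP covered 1025, 1473 and 1065 bp, ALDH-low erlotinib 1206, 1357 and 0 bp and ALDH-high erlotinib 1000, 1240 and 1365 bp, with at most 1 peak, on the right. The share fell in DTP (-37.7 points, limma adjusted p = 0.00824), in ALDH-low with erlotinib (-50.7 points, limma adjusted p = 0.0017) and in ALDH-high with erlotinib (-43.7 points, limma adjusted p = 0.00605). All 9 control libraries lay above all 9 drug-treated ones. The 3 calls were lost on the log2 scale, and the one in DTP also at a score of at least 100 and without DTP a.

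Under DMSO, the fractions also differed at chr14:103696939-103700303, 3365 bp wide, which ALDH-low covered over 1745, 2281 and 1769 bp and ALDH-high not at all (-57.4 ± 6.79 points, limma adjusted p = 0.000514). Under erlotinib both fractions held it, over 1895, 2907 and 2431 bp and 1941, 1552 and 1954 bp, and no unsorted library did. The gain in ALDH-high (+54.0 points, limma adjusted p = 9.98e-05) held under each alternative. PC9, DTP and ALDH-high DMSO had no peak in any library there and so added no spread, which lowers the SE and p of both calls. The difference under DMSO was lost at a score of at least 100, where the peaks of ALDH-low DMSO, ranked between the 1.59 and 28.5 percentile, lie low. At chr20:32319225-32322487 ALDH-high DMSO lacked the right of 2 peaks, with 1361, 1462 and 1032 bp against 2238, 2522 and 2211 bp in ALDH-low DMSO. That call (limma adjusted p = 0.0477) was lost under 20 of 25 alternatives. Higher in ALDH-high DMSO were chr2:47140566-47144223 (1971, 3137 and 3154 bp against 979, 1110 and 1268 bp) and chr5:14035185-14040403 (3590, 4323 and 4565 bp against 3069, 1527 and 1721 bp), both of which lost their call after centring and with only their own libraries, and without ALDH-low DMSO b or c or ALDH-high DMSO b or c. The one on chromosome 2 was also lost without DTP c or ALDH-low DMSO a and at a score of at least 100. Lists of equal size and a block for the replicate letters ended it too.

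Under erlotinib, most domains that differed between the fractions were open in ALDH-low and absent or partial in ALDH-high. At chr3:13034063-13037150 ALDH-low erlotinib covered 2196, 3058 and 2561 bp and ALDH-high erlotinib none (-84.4 ± 14.4 points, limma adjusted p = 0.00691). At chr19:50092601-50097445 they covered 4806, 3465 and 4540 bp and 2402, 1341 and 1049 bp (-55.2 points, limma adjusted p = 0.0111), and at chr20:46413115-46416169 2880, 2417 and 2718 bp and 0, 0 and 909 bp (-77.5 points, limma adjusted p = 0.0127). At chr19:1258957-1263056 they covered 2360, 4100 and 2164 bp and 0, 1104 and 0 bp (-61.1 points, limma adjusted p = 0.00753). All 4 were lost on the log2 scale, the one on chromosome 3 also at a score of at least 100 and with lists of equal size, and both on chromosome 19 also with only their own libraries. Leaving out ALDH-low erlotinib c raised the number of calls from 12 to 21. In the other direction, chr5:148291505-148294796 (0, 0 and 0 bp against 2379, 3163 and 2504 bp) and chr7:5464873-5470375 (0, 0 and 0 bp against 2825, 5503 and 4494 bp) were higher in ALDH-high, and the first held under each alternative, while the second was lost with only its own libraries and could not be fitted at a score of at least 100 or with lists of equal size. With no call, chr14:104004396-104009009 had 0, 0 and 2609 bp in ALDH-low and 4111, 3562 and 3339 bp in ALDH-high.

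Counting the domains in which the 3 libraries of a group all lay beyond the 3 of the other needs no fit and did not always stand to the background as the limma calls did. In DTP 215 of 1370 (15.7%) were covered over more bases than in PC9 and 122 (8.91%) over fewer, against 18.2% and 9.72% of all regions. With erlotinib in ALDH-low 438 (32.0%) were covered over more and 18 (1.31%) over fewer, against 18.1% and 2.27%, and in ALDH-high 271 (19.8%) and 39 (2.85%), against 14.5% and 2.91%. ALDH-high was above ALDH-low under DMSO in 127 (9.27%) and below in 29 (2.12%), against 5.37% and 1.38%, and under erlotinib in 77 (5.62%) and 132 (9.64%), against 5.24% and 3.75%. With erlotinib in ALDH-high, and for ALDH-high over ALDH-low under DMSO, the share of higher domains was above the background here and below it among the limma calls. Since wide peaks of the erlotinib libraries made many of these regions domains, their higher coverage in those libraries is in part what the rule used.

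With drug, score ranks of the domains moved in the same direction as those of other regions, by a smaller median in both sorted fractions. Among the domains held by all 6 libraries of a comparison, the best peak ranked higher without overlap in 223 of 1143 in DTP (19.5%) and lower in 142 (12.4%), against 20.6% and 15.6% of all regions held by all 6. With erlotinib it ranked higher in 269 and lower in 45 of 1091 in ALDH-low (24.7% and 4.12%, against 26.5% and 6.36% of regions), and higher in 203 and lower in 75 of 1165 in ALDH-high (17.4% and 6.44%, against 19.6% and 7.04%). Between the fractions under DMSO it ranked higher in ALDH-high in 122 and lower in 38 of 1092 (11.2% and 3.48%, against 11.1% and 2.65%), and under erlotinib in 103 and lower in 90 of 1225 (8.41% and 7.35%, against 9.23% and 5.94%). The median difference in mean percentile over the domains was 1.46 in DTP, 3.96 in ALDH-low and 2.12 in ALDH-high, against 1.43, 6.52 and 3.78 over all such regions. These shares lay near the background, including those for ALDH-low erlotinib, where covered bases were further from it.

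Changes in the number of peaks were rare. Without overlap of the groups, 6 of 1143 domains had more peaks in DTP than PC9 and 12 had fewer. These were 0.525% and 1.05%, against 0.0703% and 0.161% of all regions held by all 6 libraries. In ALDH-low 6 of 1091 had more with erlotinib and 2 fewer (0.55% and 0.183%, against 0.119% and 0.0312% of regions). In ALDH-high 12 of 1165 had more and 8 fewer (1.03% and 0.687%, against 0.099% and 0.0521%). Between the fractions under DMSO 7 of 1092 had more peaks in ALDH-high and 2 fewer (0.641% and 0.183%, against 0.0788% and 0.0242%). Under erlotinib 4 of 1225 had more and 0 fewer (0.327% and 0%, against 0.0389% and 0.0216%). Apart from that 0%, the domains' shares lay above the background, and width was not matched between domains and other regions. Few domains appeared or vanished: 5 and 4 were held by all 3 libraries of DTP or PC9 and none of the other, or 0.363% and 0.291%, against 5.59% and 3.05% of all regions. With erlotinib, 33 domains were gained and 3 lost in this way in ALDH-low (2.4% and 0.218%, against 4.54% and 0.59% of all regions). In ALDH-high it was 10 and 1 (0.727% and 0.0727%, against 3.23% and 0.713%). ALDH-high alone held 8 domains under DMSO and 2 under erlotinib (0.581% and 0.145%, against 0.732% and 0.644% of all regions). ALDH-low alone held 3 and 4 (0.218% and 0.291%, against 0.0805% and 0.322%).

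A peak of at least 3 kb in all 3 libraries of a group and in none of the other was counted in the same way. Such a peak makes its region a domain, so these counts describe what the rule used. No merged region outside the domains can have one, so there is no separate background. With erlotinib, 49 domains gained such a peak in ALDH-low and 1 lost it, and 20 gained it in ALDH-high and 1 lost it. In DTP 11 gained it and 6 lost it relative to PC9. ALDH-high had it over ALDH-low at 7 domains under DMSO and 5 under erlotinib, and the reverse held at 2 and 17.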

How the data were processed

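ATAC-seq peak lists of 18 PC9 libraries were used, 1 deposited list per library, grouped by the sample labels. Per the submitters' processing notes, BWA, MACS 1.4.2 and hg19 were used. The sources used here do not give calling parameters, duplicate removal, transposase shifting or filters. Each peak has a position and a score deposited by the authors, whose scale is not stated. Scores were used only as percentiles within a list, as a minimum, or to rank peaks for lists of equal size.

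Peaks on chromosomes 1 to 22 and X sharing at least 1 bp were merged, and regions at least 3000 bp wide (end minus start) were kept as domains. The percent of each region covered, per library, was fitted with limma 3.58.1 (R 4.3.3): 18 libraries, 6 group means, variance trend on log2 width, robust moderation, Benjamini-Hochberg adjustment over the 54761 regions held by at least 3 libraries, threshold 0.05. Positions are 1-based. The fit was tested on simulated data, with larger changes after smaller ones were seldom recovered. It missed many changes, and false calls, none at domains, exceeded the nominal share.

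The members, lists and tests were chosen with earlier results of these data known. Domains named are the 10 widest, the 3 nearest the limit on each side, up to 6 per comparison and direction with the largest difference in mean covered bases among those called without overlap of the groups (if fewer than 3, up to 3 uncalled ones as values only), the 5 held by fewest libraries and the 5 with most peaks. Other called domains, such as chr15:58621788-58625213 in DTP, are named where the rule chose them in another comparison. Gene lists were not used, for want of an hg19 annotation. Alternatives changed the score minimum (100), the list length (26225 peaks each), the scaling, the response (log2 of covered bases plus 200), the libraries fitted, the filter, a replicate block and single libraries left out. In each of these fits the domains kept the boundaries merged from all 18 libraries.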

Additional observations from a re-analysis of the deposited data

Results flagged for a closer look

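In 7 domains the change with erlotinib differed between the ALDH fractions, by the interaction contrast of the limma fit (adjusted p below 0.05), where 0.254% of all regions were called in the positive and 0.436% in the negative direction. The difference given is the change in ALDH-high minus the change in ALDH-low, in points of the domain's width. It was -115.4 at chr3:13034063-13037150, where erlotinib took ALDH-low from 0, 0 and 0 bp to 2196, 3058 and 2561 bp and ALDH-high from 0, 1867 and 1009 bp to none. It was -97.66 at chr11:2948983-2952659, which all ALDH-low erlotinib libraries and only ALDH-high erlotinib c held after treatment.

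Under DMSO, 2 of the domains had no peak in ALDH-low and a peak in each ALDH-high library: chr12:6308733-6312026, with -87.82 points, and chr19:56152009-56156032, with -55.5 points. Both fractions held them under erlotinib, so the gain was in ALDH-low. At chr6:44008852-44012165 (-56.82 points) ALDH-low went from 1029, 869 and 1052 bp to 2467, 1576 and 1789 bp, and ALDH-high from 2374, 2621 and 2315 bp to 1044, 1426 and 2073 bp. At chr22:36781163-36785048 (-45.57 points) the loss was in ALDH-high, as described above. The lone positive difference was at chr7:5464873-5470375 (94.64 points), where ALDH-high erlotinib had a peak in each library and ALDH-low erlotinib in none, at an adjusted p of 0.0498 in limma that 15 of the 23 alternatives that could be fitted ended. Each of the 7 was lost under at least 1 alternative, and with the 12 sorted libraries alone 1 call was left, at chr3:13034063-13037150.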

How the results depend on the processing

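The number of domains was 7008 at a width of at least 2000 bp and 72 at 5000 bp. It stayed within 1.5 times of 1376 when only scores of at least 100 were used (1280), with lists of equal size (1269), with peaks within 100 bp merged (1439), when a single peak of 3000 bp was asked for (942), and without any 1 library (1274 to 1369). For DTP against PC9, where 78 domains were called, the range with 1 library left out was 41 to 82. For erlotinib in ALDH-low (163 called), lists of equal size gave 100, centring 82 and leaving out 1 library 114 to 188; for erlotinib in ALDH-high (53), the log2 response gave 31 and leaving out 1 library 39 to 61. Between the fractions under DMSO (9), lists of equal size gave 3, and leaving out 1 library 8 to 13. Under erlotinib (12), the log2 response gave 6, only the libraries of the comparison 7, and leaving out 1 library 10 to 21, with 21 without ALDH-low erlotinib c. For the difference between fractions in the erlotinib change (7), only the 12 sorted libraries gave 1, and leaving out 1 library 5 to 10. Centring moved the median difference over all regions: 2.98 points became 0.0718 in DTP, 10.5 became 2.14 with erlotinib in ALDH-low, and 7.42 became 1.26 in ALDH-high. The other alternatives kept these counts within 1.5 times, and the cause of the shifts was not tested. With the letters a, b and c as a replicate block, the calls were 72, 158, 49, 8, 12 and 7 in the same order. Correlations of same-letter deviations ran from -0.00827 to 0.0177, so same-letter libraries shared little deviation over the regions. Such values cannot show whether the letters mark a shared culture or batch. Only with erlotinib in ALDH-low did each library correlate best with its own letter. Of 82 calls at named domains, 14 held under all 25 alternatives, 1 more under all 23 that could be fitted, and none turned direction; 7 calls, at 3 domains held by fewer than 3 libraries under a stricter setting, could not be fitted there; 44 were lost at a score of at least 100, 42 with lists of equal size, 33 with only the libraries of the comparison and 22 on the log2 scale, while 35 were lost without some library. The depth of the libraries is unknown, so a missing peak cannot be told from too few reads.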
